A study of Mus musculus with 2 samples.

Results

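Incomplete splice match (ISM) prefix models are transcript models that follow the first introns of a longer model of the same gene and then stop splicing. The members described here are all mouse models that the deposited tables class as ISM with the subtype Prefix, or with the subtype Both, which marks a model that is a prefix of one transcript and a suffix of another. There were 1229 members among 56750 mouse models in replicate 1 and 1599 among 68986 in replicate 2. The reads were long RNA sequencing reads, each intended to span a whole transcript, from heart tissue of male mice of the strain B6CASTF1/J at 2 months of age. B6CASTF1/J is an F1 cross between a C57BL strain and the wild-derived CAST strain, and both libraries share it. The study had 1 group of 2 libraries, each from 2 µg of total RNA, with no treatment or second tissue. The labels gave the libraries separate biosamples of numbered animals, but a further text field named the same animal for both, so differences between the libraries measure only the spread between these libraries.

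The 3' end of an mRNA is made by cleavage and polyadenylation. The cleavage machinery reads a hexamer, most often AATAAA or ATTAAA, a short way before the cut site. Many genes hold more than 1 such site, and a site inside an intron ends the transcript before its last exons, provided that the intron has not yet been spliced out. A prefix model is therefore what an early, intronic end would look like in long reads. The same class name is also given to a read that keeps an intron and runs on to the usual end, and to a read whose last part is missing.

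The 3' ends of 5 of the most read members carried the following letters, from GENCODE M21 transcripts on build mm10, shown because they let the end of each model be read beside its hexamer. Each is the last 30 bases of the model, 5' to 3', with AATAAA and ATTAAA in capitals.

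Fxyd1 (chr7:31051678-31051707, minus strand, 3' UTR): tctAATAAAactcggttttccttcttgata

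Myl3 (chr9:110769765-110769794, plus strand, 3' UTR): ggccttatgAATAAAtggtttccttccttc

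Ehbp1l1 (chr19:5707376-5707405, minus strand, 3' UTR): tacatacataaAATAAAtaAATAAAtcttt

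Nexn (chr3:152236982-152237011, minus strand, 3' UTR): aatcaaAATAAAtttacctgtgcATTAAAa

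Suds3 (chr5:117091680-117091709, minus strand, 3' UTR): aaaacaggataaacaatgtttattcactaa

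All 5 of these models ended on the annotated 3' end of a transcript of their gene, and 4 of the 5 windows held a hexamer. The Fxyd1, Suds3, Ehbp1l1 and Nexn ends lay on the last annotated base of the gene and the Myl3 end 4 bases before it. None of the 5 is therefore an early end within its gene. The intron chains of the Suds3, Ehbp1l1 and Nexn models occur in no known transcript. They are examples from the 10 most read members and not a fair sample of ends. The Zfp970 and Kansl2 models, also among those 10, did not end at an annotated end. The Suds3, Ehbp1l1 and Nexn models shown had 0 reads as members in replicate 1. A second kind of end was the last base of an internal coding exon. The windows below are the last 60 bases of 3 members with such an end. They were chosen after their values were seen, are examples and not the full set of the most read, and do not hold either hexamer; the share over all such members is given further on.

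Zfp106 (chr2:120533511-120533570, minus strand, coding): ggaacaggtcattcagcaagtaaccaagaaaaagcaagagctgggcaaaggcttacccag

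Lats1 (chr10:7697590-7697649, plus strand, coding): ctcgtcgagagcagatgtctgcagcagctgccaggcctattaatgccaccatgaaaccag

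Eif5b (chr1:38021752-38021811, plus strand, coding): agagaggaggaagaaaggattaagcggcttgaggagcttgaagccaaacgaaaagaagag

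They held 24 adenines in Zfp106, 16 in Lats1 and 26 in Eif5b.

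Replicate 1 held 447689 mouse reads and replicate 2 held 654198. Reads of annotated nuclear genes, to which levels in CPM are scaled here, were 430251 and 629896, so that a count of 0 allows up to 3 reads, or 6.97 and 4.76 CPM. All 6 cardiomyocyte markers were read in both libraries and summed to 46171 and 38403 CPM. Endothelial, fibroblast, pericyte and smooth muscle, and macrophage markers each summed to between 381 and 1241 CPM. Erythroid markers stood apart between the libraries at 13799 and 3663 CPM, but held 1 member read in each. Spike-in RNAs gave 6380 and 7760 reads and no member reads, but all 40 of their models had a single exon, so they could not have entered a class that needs an intron.

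The members were many and thinly read. They made up 2.17% of mouse models in replicate 1 (95% interval 2.05 to 2.29, exact Clopper-Pearson, counting error only) and 2.32% in replicate 2 (2.21 to 2.43). They held 2064 and 3055 reads, 0.461% (0.441 to 0.481) and 0.467% (0.451 to 0.484) of mouse reads, a mean of 0.464% ± 0.00421 (SD, n = 2). Of the members, 962 (78.3%) and 1236 (77.3%) rested on 1 read, and the most read member had 36 and 64 reads. Suffix models, which follow the last introns of a longer model and lack its 5' part, were 8.45 and 8.53 times as many and held 7.47% and 7.71% of mouse reads. Prefix models were thus a small side of the ISM class, with 9.43% and 9.37% of its models and 4.45% and 4.38% of its reads. Every member was spliced, with a median of 7 exons in both libraries and a range from 2 to 47 and from 2 to 44.

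The 3' ends of members lay at several kinds of position in their gene. An annotated end here can be that of any transcript of the gene, so it may still lie before the end of the longer model. Of the members in annotated genes, 593 of 1222 in replicate 1 (48.5%, 45.7 to 51.4) and 754 of 1588 in replicate 2 (47.5%, 45.0 to 49.97) ended within 100 bases of an annotated 3' end of their gene, a mean of 48.0% ± 0.740 (SD, n = 2). A further 362 (29.6%) and 494 (31.1%) ended inside an exon and 251 (20.5%) and 322 (20.3%) inside an intron, while 16 and 18 ran past the gene. Another 7 and 11 members lay in loci that the annotation does not hold. Both-subtype models ended at an annotated end in 76.8% and 80.7% of cases, Prefix-subtype models in 45.7% and 44.3%. The class definition keeps a suffix model in the last introns of its gene, and 88.9% and 89.1% of suffix models ended at an annotated end, with 0.212% and 0.176% in an intron. ISM models with no subtype, most of which have 1 exon, ended in an intron in 0.993% and 1.89% of cases.

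**Figure D1:**
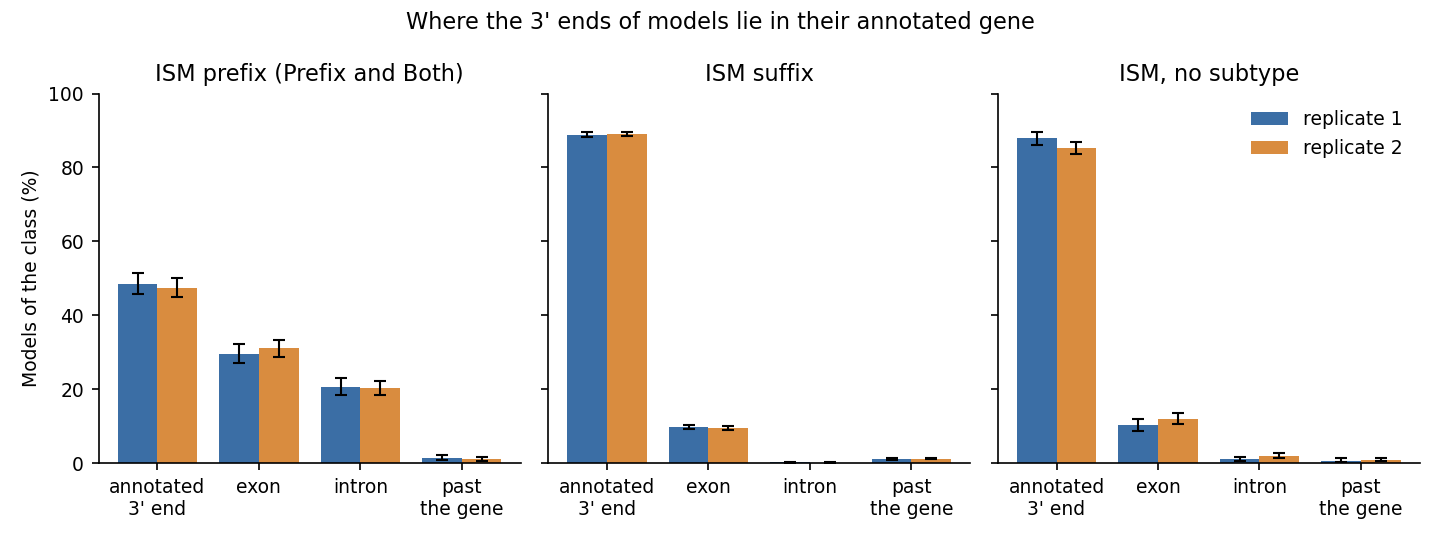
Percent of models by the position of their 3' end, for members, suffix models and ISM models with no subtype, in replicate 1 (blue) and replicate 2 (orange). Bars are exact 95% intervals over models, and the members have 20.5% and 20.3% of their ends in introns against under 2% in both other classes.

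Most of these annotated ends were shared with at least 1 coding transcript not marked as incomplete at its 3' end. Such a transcript ended within 100 bases for 437 of 593 members (73.7%) in replicate 1 and for 535 of 754 (71.0%) in replicate 2. Other transcripts that end there may be of another type. For 127 and 189 members the only transcripts there without that mark were non-coding, and for 29 and 30 all were marked as incomplete. Among members ending in an exon the end lay in coding sequence for 282 of 362 (77.9%) and 400 of 494 (81.0%). It lay in a 3' UTR for 47 and 54, in a 5' UTR for 2 and 5, and in a non-coding exon for 31 and 35.

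Most ends sat on annotated sites to the base, though less often than in the other ISM classes. In replicate 1, 588 members ended exactly on an annotated transcript end, 230 on the last base of an annotated exon, 50 on the first base of one and 13 on a transcript start. The counts in replicate 2 were 750, 339, 51 and 11. Together 881 of 1222 (72.1%, 69.5 to 74.6) and 1151 of 1588 (72.5%, 70.2 to 74.7) ended on some annotated site. Suffix models did so in 88.8% and 89.1% of cases and ISM models with no subtype in 93.0% and 89.8%. The remaining 341 and 437 members lay on none, and only 33 (9.68%) and 52 (11.9%) of these were within 300 bases of a site. The next 100 bases alone, from 301 to 400, held 56 and 58 of them. Suffix models off any site showed the same step, with 65 and 82 ends at 201 to 300 bases and 217 and 266 at 301 to 400. How model ends were set is not given in the sources used here. An end on an annotated site may not be the base at which the reads ended.

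The deposited class name did not always refer to an annotated transcript. A known transcript that begins with exactly the member's introns, called its parent below, was found for 956 of 1229 members (77.8%) in replicate 1 and 1218 of 1599 (76.2%) in replicate 2. Another 101 and 133 members held an inner or last run of known introns. The intron chains of 172 and 248 occurred in no known transcript, although the models are classed as incomplete matches. These last held 337 and 620 reads, 16.3% and 20.3% of all member reads.

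Against the parent, 3 kinds of end accounted for most members. In the first, the end lay in the first unspliced intron: 351 of 956 (36.7%, 33.7 to 39.9) in replicate 1 and 449 of 1218 (36.9%, 34.1 to 39.6) in replicate 2. In the second, the end lay in the exon at which splicing stopped: 249 (26.0%) and 375 (30.8%), of which 179 and 278 sat on the last base of that exon. In the third, the model ran through at least 1 unspliced intron to the parent's own 3' end: 235 (24.6%, 21.9 to 27.4) and 271 (22.2%, 19.9 to 24.7). These last models keep an intron and end where the parent ends, and 194 and 227 of them kept 1 intron. The rest ended in a later exon (100 and 99) or a later intron (21 and 24).

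**Figure D2:**
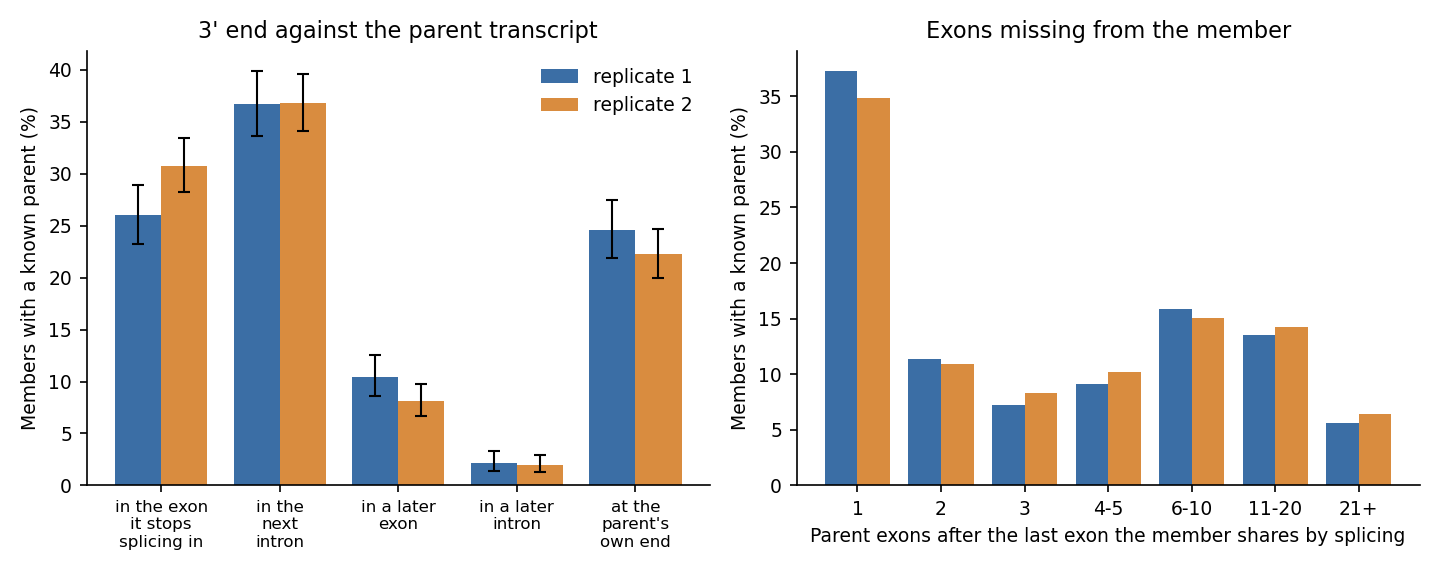
Left, percent of members with a known parent transcript by where their 3' end lies against it, with exact 95% intervals over models; right, percent of the same members by the number of parent exons that follow their last spliced exon. Replicate 1 is blue and replicate 2 orange. Members with 1 parent exon after their last spliced exon are the tallest group on the right at 37.2% and 34.9%, and some of these hold that exon unspliced.

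For members that ended in the first unspliced intron, the median distance past the exon was 775 bases in replicate 1 and 791 in replicate 2, and the longest were 7946 and 7863 bases. An annotated end of another transcript lay there for 125 and 171 of them. Of the 201 and 246 that ended in sequence annotated as intron, only 7 and 6 lay within 300 bases of the exon, and their median distance was 1039 and 1013.5 bases. Since off-site ends of every class were scarce within 300 bases of a site, these distances cannot be told apart from the way ends were set.

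A median of 3 parent exons followed the last spliced exon of a member in both libraries, with an interquartile range from 1 to 9. These exons were not joined by splicing, but they were not always absent. Members that run through an unspliced intron hold some or all of them, and those reaching the parent's own end had a median of 1 such exon. In 356 (37.2%) and 425 (34.9%) members 1 such exon followed, and in 211 (22.1%) and 287 (23.6%) 10 or more did. The largest numbers were 103 and 338 exons. Members kept a median of 63.1% and 62.5% of the parent's introns, and 136 (14.2%) and 152 (12.5%) kept only the first. Where the parent is coding, 617 of 906 members (68.1%, 64.96 to 71.1) and 812 of 1152 (70.5%, 67.8 to 73.1) ended before the parent's stop codon, and 6 and 12 ended before its start codon. The parent itself was often unread: 172 of 956 and 257 of 1218 had a parent with no read in either library.

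Poly(A) signal hexamers differed with the position of the end. The hexamers AATAAA and ATTAAA, searched on the strand of the model in its last 50 bases, were found in 477 of 906 members with readable sequence in replicate 1 (52.6%, 49.3 to 55.9) and in 605 of 1182 in replicate 2 (51.2%, 48.3 to 54.1). At annotated ends the share was 72.2% and 71.3%, close to the 71.4% and 70.7% of known transcripts read in the same libraries. It was 83.9% and 83.3% for suffix models at annotated ends. Of all 115224 annotated ends in GENCODE M21, read or not, 34.9% had a hexamer. In exons it was 17.0% and 15.7%, against 59.0% and 56.9% for suffix models ending in exons, most of which lie in last exons by definition. Members on the last base of a parent exon stood lowest, at 16 of 167 (9.58%, 5.58 to 15.1) and 25 of 260 (9.62%, 6.32 to 13.9). Other exon ends reached 25.9% and 25.3%. Letters came from annotated transcripts, which cover almost no intron ends (12 of 251 and 8 of 322), so no share is given for these.

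A stretch of A in the template can capture the oligo(dT) primer used in many cDNA protocols, and its part in these ends was not tested beyond the shares given here. At least 12 A in the 20 genomic bases after the end were found for 45 of 411 members with readable sequence in replicate 1 (10.9%, 8.10 to 14.4) and 45 of 460 in replicate 2 (9.78%, 7.23 to 12.9), against 8.47% and 8.34% of suffix models. These bases can be read only where an annotated exon runs past the end. That left out most exon-boundary ends away from annotated ends (22 of 171 and 31 of 266 readable) and most intron ends (10 of 251 readable in replicate 1). Ends in exons had 6.71% and 7.96%, below the 11.2% and 11.6% of suffix models ending in exons, with overlapping intervals in both libraries. Members at annotated ends went the other way, with 13.8% and 11.3% against 7.56% and 7.21% of suffix models at annotated ends. These intervals did not overlap in replicate 1 but did in replicate 2. Only 232 of 593 and 256 of 754 such members were readable. For members on the last base of a parent exon a wider window was read along the parent mRNA, since their recorded end may not be the base at which reads ended. A 20-base stretch with at least 12 A lay within 300 bases of the end in 101 of 162 (62.3%, 54.4 to 69.8) and 152 of 251 (60.6%, 54.2 to 66.6). Of all internal exon ends of the same parents, 52.7% (50.8 to 54.6) and 55.1% (53.6 to 56.6) had one, so the intervals overlapped.

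Members were spread over 1702 of 14534 annotated genes with reads, 957 in replicate 1 and 1184 in replicate 2, with 439 genes in both. Protein-coding genes made up 1659 of them and no mitochondrial gene, whose transcripts lack introns, was among them. In 1043 genes the libraries summed to 1 member read. Only 78 genes had 10 or more, and the 20 genes with the highest mean level held 20.1% and 26.0% of member reads. Of the 1757 genes with at least 100 summed reads, 465 had a member, the median member share of a gene's reads was 0% and the 90th percentile 1%. In 22 of these genes the mean member share was 10% or more.

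Genes with more exons gave a larger share of their reads to members. The share was 0.207% and 0.183% in genes of 2 to 5 exons, 0.394% and 0.341% at 6 to 10, 0.663% and 0.735% at 11 to 20, and 0.923% and 1.16% at 21 to 40. In genes with 41 or more exons it was 2.18% (1.73 to 2.71) and 2.21% (1.82 to 2.67). The intervals of neighbouring bins did not overlap in either library, but they count reads and not genes. Of the 79 and 106 member reads in the top bin, Ryr2 had 14 and 22 and Myh7 had 12 and 11. A member needs a longer model of its gene, so by definition genes with more exons can hold more different members. The part of this in the rise was not tested. Suffix models rose over the same bins from 4.08% and 4.18% to 34.1% and 36.0%. Across the 1757 genes Spearman's rho of member share with exon number was 0.275 and with read level 0.0689, as a description of genes that share their libraries.

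**Figure D3:**
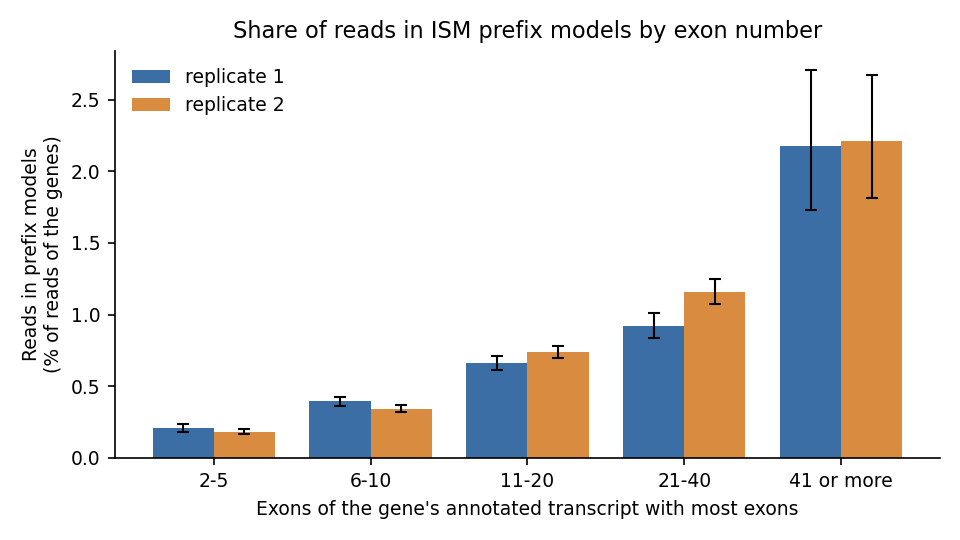
Percent of the reads of annotated genes that lie in members, by the exon number of the gene's annotated transcript with most exons, in replicate 1 (blue) and replicate 2 (orange) with exact 95% intervals. The share is lowest at 2 to 5 exons (0.207% and 0.183%) and highest at 41 or more (2.18% and 2.21%).

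Members that end within an intron of their parent, on the annotated end of another transcript, took large shares of several genes. Synpo, which encodes the actin-binding protein synaptopodin, had 29 of 62 and 34 of 63 reads in 1 member, a mean share of 50.4% ± 5.09. That member ended 1907 bases past its second exon on an annotated end, and the intervals of the libraries (34.0 to 59.9 and 40.9 to 66.6) overlapped widely. Lmna, which encodes the nuclear lamins A and C, differs from this layout. Its single member, a 2-exon Both model of 329 bases, had 32 reads in replicate 1 and 63 in replicate 2, 18.6% and 26.0% of the gene, but it begins with the first introns of no known transcript and has no known parent.

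Caprin1, which encodes an RNA-binding protein of stress granules, showed the layout of Synpo at its last intron. Its members held 15 of 56 and 28 of 79 reads, 31.1% ± 6.12. The most read one had 18 of the parent's 19 exons and ended 1299 bases into the last intron, on the end of Caprin1-209, a 5-exon transcript with no reads. Sik3, a salt-inducible kinase gene, had 16 of 30 and 15 of 28 reads in a 14-exon member that ended 815 bases past its last spliced exon, with 10 parent exons missing, on the end of the unread Sik3-203. Slc25a23, which encodes a mitochondrial carrier, had 16 of 21 and 14 of 22 reads in a 9-exon member ending 135 bases into the last intron. In these 3 genes the recorded end belonged to an annotated transcript that itself had between 0 and 3 reads in both libraries together. The parent had 49 reads over both libraries in Caprin1, but only 1 each in Sik3, Slc25a23 and Synpo.

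Ryr2, the ryanodine receptor that releases calcium from the sarcoplasmic reticulum, had 14 of 50 and 22 of 80 reads in members, 27.75% ± 0.354. Its annotation reaches 105 exons and no read of the gene matched a known transcript in full. The most read member had 22 exons and ended in an intron, at chr13:11789878 in replicate 1 (8 reads) and at chr13:11789589 in replicate 2 (12 reads). The libraries agreed on its intron chain, which occurs in no known transcript, but not on the last base, which differed by 289 bases. Myh7, the slow beta myosin heavy chain, had 12 of 76 and 11 of 98 reads in members, 13.5% ± 3.23. Its most read member had 26 exons, and 15 parent exons followed its last spliced one.

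In abundant heart muscle genes, members were a small share of the reads, and their number varied. Myh6, the alpha myosin heavy chain, had 33 members with 48 of 15700 reads in replicate 1 and 39 with 58 of 17418 in replicate 2, 0.319% ± 0.0193. Of these, 30 and 36 ended in exons, 17 and 15 of all on the last base of an exon, and none had over 5 reads. Its most read member joined 22 of 39 exons and ended on the last base of exon 22, with 5 and 4 reads. Tpm1, which encodes tropomyosin, had far fewer, with 1 and 3 members. Atp2a2, which pumps calcium back into the sarcoplasmic reticulum, had 21 of 5551 and 50 of 6784 reads in 16 and 25 members, 14 and 21 of which ended at an annotated end.

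A further group consisted of intron-keeping models. Fxyd1 encodes phospholemman, a regulator of the sodium pump, and had 48 of 857 and 65 of 1287 reads in members, 5.33% ± 0.389. Of these reads, 47 and 65 were in models that reach the parent's own end through an unspliced intron. For the most read one, with 36 and 51 reads, that parent is Fxyd1-213, itself annotated as a retained-intron transcript. It has 3 exons, where the gene's annotation reaches 8. Myl3, the ventricular essential light chain, had 16 of 2461 and 26 of 3651 reads in members. Of these, 16 and 23 lay in a model with 6 of 7 exons that kept the last intron. Mbd3, a subunit of the NuRD chromatin complex, had 12 of 34 and 21 of 68 reads in members, 33.1% ± 3.12, of which 11 and 21 reached the parent's end.

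Other genes ended inside exons or later in the gene. Son, which encodes a splicing cofactor, had 17 of 21 and 18 of 28 reads in members, nearly all in a 3-exon model of 362 bases that ended 5881 bases before the close of its very long coding exon. Kansl2, of the NSL acetyltransferase complex, had 16 of 94 and 29 of 142 reads, with the most read member ending on the first base of a later exon. Zfp970, a zinc finger gene, had 44 of 217 and 69 of 398 reads, most in a 3-exon model with 36 and 54 reads. That model ended 842 bases past its last spliced exon in replicate 1 and 1148 bases past it in replicate 2, there on the first base of an annotated exon. Zinc finger genes lie beside similar copies, and the sources used here do not say how reads were split between them. Ccpg1 held 14 of 73 and 23 of 111 reads in members and Zfp106 held 14 of 112 and 23 of 177.

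**Figure D4:**
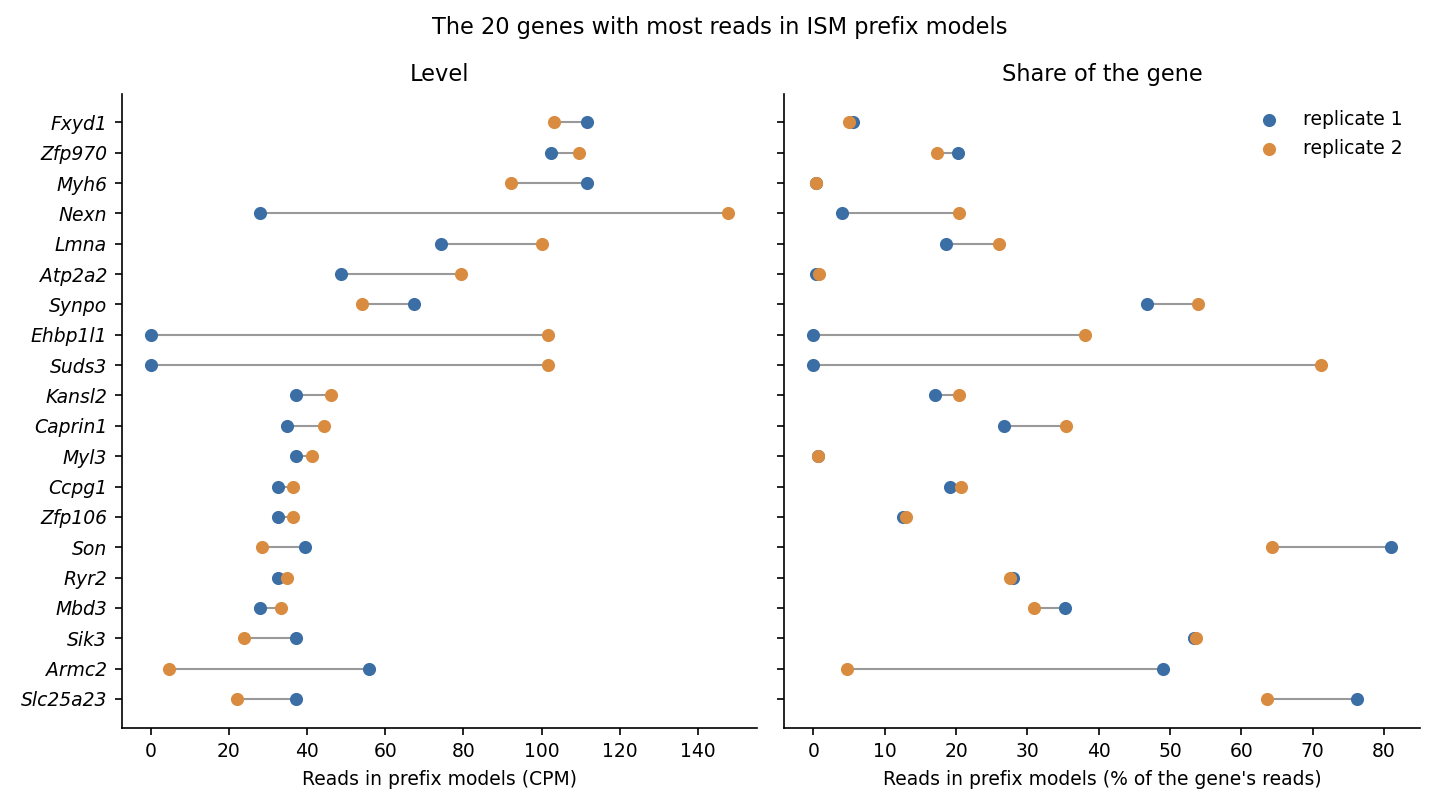
Left, reads in members in CPM and, right, the percent of the gene's reads in members, for the 20 genes with the highest mean member level; points are replicate 1 (blue) and replicate 2 (orange), joined by a line. Nexn, Ehbp1l1, Suds3 and Armc2 differ widely between libraries, and Son, Slc25a23 and Sik3 have the largest shares that both libraries show.

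Among members that ended in an intron in both libraries, the most read was the Ryr2 model, whose ends differed between the libraries as given above. Others had the same or nearly the same last base in both. Clec16a, a regulator of mitophagy, had 8 and 8 reads in a model of 15 of 23 exons that ended 2261 bases into the next intron at chr16:10633062 in both libraries. Rhot1, which links mitochondria to motor proteins, had 6 and 8 reads in a model of 19 of 20 exons ending 1507 bases into the last intron, again at the same base in both. Ndufa10, a subunit of respiratory complex I, had 4 and 7 reads ending 2560 and 2564 bases past exon 9 of 10. Dhx32 had 2 and 4 reads ending 2166 bases past exon 2 of 12 in both. Over both libraries the parent had 1 read in Clec16a, 8 in Rhot1, 1109 in Ndufa10 and 47 in Dhx32. The 10 most read members with intron ends in both libraries had between 6 and 20 summed reads each, so none of these is deeply sampled. The Zfp970 model given above had more, with 36 reads in replicate 1, but it ended in an intron in that library alone. Its 54 reads in replicate 2 were in a model that ended in an exon.

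Of the members whose coding windows are printed above, Lats1, a Hippo pathway kinase, had 5 and 7 reads ending on the last base of exon 3 of 8, and Eif5b, a translation initiation factor, had 3 and 6 reads ending on that of exon 5 of 24. For Zfp106 the 2 libraries gave ends 2 bases apart, 1 of them on the exon's last base.

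Gene groups chosen by function held few member reads, and none of their genes passed the test between libraries described further on, which 0.15% of all tested genes passed. Over the 3328 genes that had 20 or more reads per library, members held 0.369% and 0.373% of reads, 787 genes had a member in at least 1 library, and the median gene share was 0%. Counts of list genes below cover all read genes of a list. In calcium handling and excitation, 9 of 18 genes had a member and the list held 0.484% (0.362 to 0.634) and 0.728% (0.597 to 0.879) of reads, with Atp2a2, Ryr2 and Trdn at the top. Trdn, which anchors the calcium release complex, had 4 of 237 and 28 of 360 member reads. In the thick and thin filament list 8 of 15 genes had a member, at 0.283% and 0.283%. Among titin, Z-disc and M-band genes 10 of 18 did, at 0.256% and 0.186%, led by Nebl (3 and 5 reads), Ankrd1 (3 and 4) and Xirp1 (4 and 3).

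The metabolic lists were lower. Nuclear oxidative phosphorylation genes had members in 11 of 20 genes but only 9 of 26981 reads (0.0334%, 0.0153 to 0.0633) and 13 of 41705 (0.0312%, 0.0166 to 0.0533). Their median gene share was 0.0157% and the highest 0.3598%, in Ndufs1. Fatty acid genes held 0.0661% and 0.0550% (9 of 18 genes) and the TCA cycle and glycolysis list 0.114% and 0.0825% (9 of 22), with Idh2 at 7 and 9 reads. Exon number was not held equal between lists, and its part in these shares was not tested. Ribosomal protein genes had 0 and 1 member reads, and collagen and fibroblast genes 1 and 1.

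Lists of other cell types were thin: endothelial genes had 3 and 2 member reads of 701 and 922, and macrophage genes 1 and 0 of 252 and 367. In tissue RNA, fewer cells of a type and less RNA per cell cannot be told apart. Among genes of cleavage and polyadenylation 3 of 24 had a member (Papola, Cstf1 and Ppp1ca), with 3 of 399 and 1 of 647 reads. Genes of the U1 particle and other factors that hold back early ends had 5 of 387 and 7 of 646 reads, in Ddx5 and Snrpa. Of 11 read genes known from textbooks for intronic poly(A) forms, 1 had a member: Ighm, the immunoglobulin mu heavy chain, with 0 and 1 reads.

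The libraries shared a modest part of their members. Of 2450 distinct intron chains 378 were members in both, 30.8% of those in replicate 1 and 23.6% of those in replicate 2, against 45.3% and 34.4% for suffix models. Shared chains carried 51.3% and 44.7% of member reads. At 3 or more reads, 84.2% of the chains of replicate 1 and 72.4% of those of replicate 2 were members of the other library at any depth. Chains ending at annotated ends were found again more often (37.4% and 29.6%) than those ending in an exon (24.9% and 18.4%) or an intron (24.3% and 17.7%), and 1-read models made up 73.5% and 70.3%, 85.9% and 84.0%, and 78.9% and 84.8% of these. The same chain had the same last base in 246 of 378 cases (65.1%), while 66 (17.5%) differed by more than 300 bases, by up to 4643.

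A two-sided Fisher exact test of member reads against the gene's other reads compared the 2 libraries gene by gene, with Benjamini-Hochberg adjustment over 3328 genes. It covers counting error only. Calls needed an adjusted p below 0.05 and shares that differed by 10 percentage points or more, and 5 genes, 0.15% of those tested, met both. Suds3, of the Sin3 corepressor complex, had 0 of 60 member reads in replicate 1 and 64 of 90 in replicate 2 (Fisher exact test, adjusted p = 8.13e-18). Ehbp1l1 had 0 of 133 and 64 of 168 (1.41e-16), and Nexn, a Z-disc actin-binding protein, 12 of 295 and 93 of 456 (3.12e-08). Gm14403 had 16 of 28 and 0 of 38 (2.96e-05), and Armc2 24 of 49 and 3 of 63 (3.23e-05). Before adjustment 18 genes had p under 0.05.

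In each of the 5 genes the intron chains in question were read in the other library under another class. The Suds3 chain had 46 reads in replicate 1 as NNC, the class with an unannotated splice site. The Ehbp1l1 chains had 38 reads there as NIC, the class that joins known sites in an unlisted way, and 18 as suffix models. The Nexn chains had 19 NIC, 20 NNC and 11 suffix reads in replicate 1. Gm14403 had 16 NIC reads and Armc2 35 NNC reads in replicate 2. Counted by intron chain whatever the class, the shares were 76.7% and 71.1% in Suds3, 42.1% and 38.1% in Ehbp1l1, 21.02% and 23.9% in Nexn, 57.1% and 42.1% in Gm14403, and 49.0% and 60.3% in Armc2. The same Fisher exact test then called 0 of 3328 genes (adjusted p = 1 in all 5), and 7 had an unadjusted p under 0.05.

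**Figure D5:**
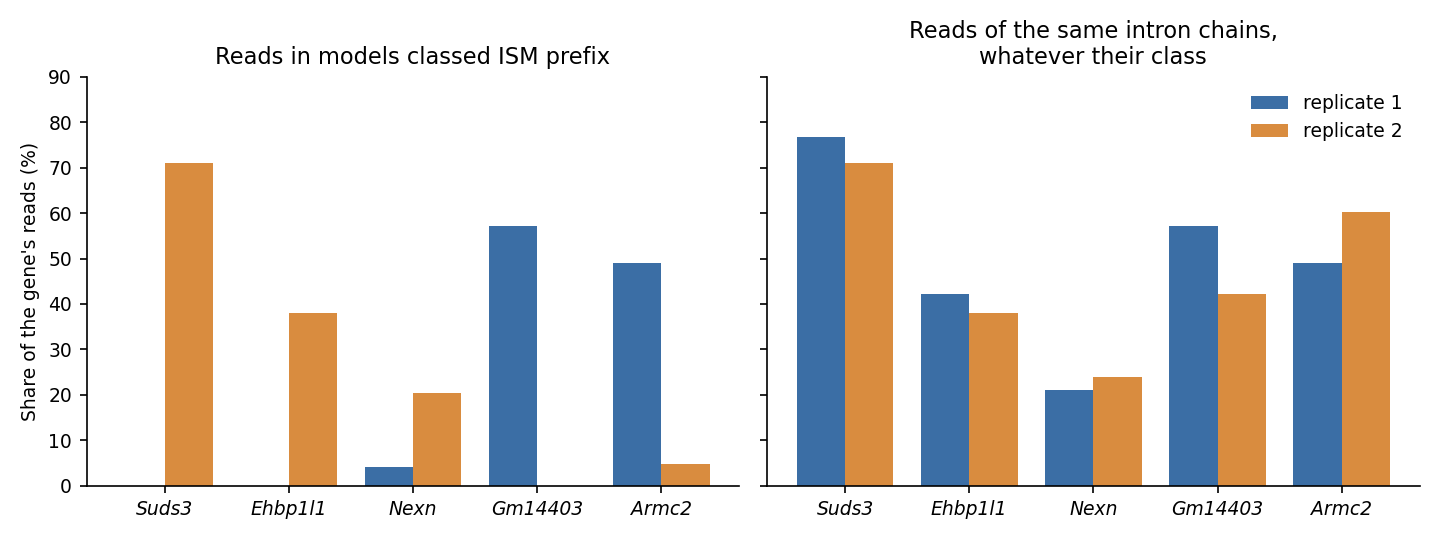
Percent of a gene's reads in the 5 called genes, in replicate 1 (blue) and replicate 2 (orange): left, reads in models classed as members in that library; right, reads of the same intron chains whatever their class. On the left a library is at 0% in Suds3, Ehbp1l1 and Gm14403, and on the right all 10 bars lie between 21.02% and 76.7%.

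Over all members, such a change of class concerned few chains but more of the reads. Of the members of replicate 1, 17 chains with 54 reads were NIC and 12 with 46 reads NNC in replicate 2. Of those of replicate 2, 19 with 124 reads were NIC and 16 with 138 reads NNC in replicate 1, together 8.58% of its member reads. A further 8 and 11 chains were suffix models in the other library. Chains not read at all in the other library numbered 812 (66.1%) and 1171 (73.2%) and held 43.3% and 44.0% of member reads.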

How the data were processed

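The deposited tables hold whole-number counts of reads per transcript model, one table per library, not normalized or pooled by the authors. Alignment was to mm10 and models were compared with GENCODE M21, per the deposited text files, and TALON is named in the deposited annotation files as the source of unannotated models. The aligner, read correction, versions, strand assignment and the setting of model ends are not given in the sources used here. Each exon number and length is a value of a model, per the file headers.

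Members were taken by class and subtype without spike-ins, and their 3' ends from the annotation files. An end within 100 bases of an annotated end of its gene counted as annotated, then exon, intron or past the gene. The parent was the known transcript starting with the member's introns that had most reads. Bases around ends were read from GENCODE M21 transcripts wherever an annotated exon covers them, because no mm10 genome was used here, and some windows are not reported here. Shares have exact Clopper-Pearson 95% intervals over models or reads, which are not replicates. The intervals cover counting error only. Fisher's exact test needed at least 20 reads of a gene in each library and was tested on simulated data. Genes were named as the 20 with the highest mean member CPM, the 10 with the highest member share at 100 or more summed reads, the 3 leading genes of each of the lists, and those called. Models named were the 10 most read members and the 10 most read with intron ends in both libraries. Members, lists and rules were chosen with earlier results of these data known. Analyses used Python 3.11.15, pandas 2.3.3, scipy 1.17.1 and matplotlib 3.10.9.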

Additional observations from a re-analysis of the deposited data

How the results depend on the processing

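No paired analysis was possible because there is 1 group. The member share of mouse reads, 0.464%, was 0.475% over annotated nuclear genes, 0.400% with the Prefix subtype alone and 0.262% with models of at least 2 reads. The share ending at an annotated 3' end, 48.0%, was 56.7% when reads were counted, 45.0% with Prefix alone and 61.0% at 2 or more reads, and the intron share, 20.4%, was 16.7%, 21.8% and 16.9%. The hexamer share, 51.9%, was 48.7% in 35 bases, 57.4% in 100 bases, 43.1% with AATAAA alone, 59.0% by reads, 49.7% with Prefix alone and 62.7% at 2 or more reads. The A-rich share, 10.4%, was 17.6% at 10 A, 7.41% at 14 A, 7.37% with 6 A in a row and 7.52% at 2 or more reads. The median of 3 parent exons after the last spliced exon was 2 by reads. Genes called numbered 5, 3 at a minimum of 50 reads and 0 when intron chains were counted whatever their class, an alternative chosen after seeing the data. Shared chains numbered 378, and 131 at 2 or more reads. The cause of these shifts was not tested. The other 29 alternative values, those without each replicate included, stayed within the spread between libraries or within 1.5 times the count. Most members rest on 1 read, so single members are weakly supported at this depth, and intron ends were not read for sequence.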
